A study of Sus scrofa with 24 samples.

Results

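TFRC, SOX6, EPB41 and ABCB10, 4 genes with known roles in red cell development, gave 10 of the 3000 circular RNAs (circRNAs) counted in the spleens of Meishan pigs. A circRNA was given to a gene when both of its back-splice ends lay within 1 base of exon ends of that RefSeq gene on the same strand of Sscrofa11.1. By this rule 2842 circRNAs had exactly 1 host gene, 1670 host genes in all, and the 4 genes held 3 (TFRC), 1 (SOX6), 5 (EPB41) and 1 (ABCB10) circRNAs. Whole spleens were taken from healthy Meishan pigs, with no treatment named, at ages of 1, 7, 14 and 21 days, 28 and 35 days, and 120 and 180 days (1d to 180d), with 3 different pigs at each of the 8 stages and 1 library for each pig, 24 libraries in all. The labels describe an RNeasy extraction and a ribosome-depleted TruSeq stranded kit, whereas the methods of the study describe TRIZOL, RNase R digestion and a directional NEBNext kit, and which was used could not be settled from the sources. A count is the number of reads across a back-splice junction, at which the downstream end of an exon is spliced back onto the upstream end of the same or an earlier exon. The linear RNA of these genes was not analysed here, and in whole tissue fewer cells of a type and less of a circRNA in each cell cannot be told apart.

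Red cells develop from erythroblasts, which divide several times, fill with haemoglobin and then lose their nucleus. TFRC, the transferrin receptor, carries iron-loaded transferrin into cells and is abundant on erythroblasts and on other dividing cells. ABCB10 is a transporter of the inner mitochondrial membrane that developing red cells of mice need for haemoglobin synthesis, and SOX6 is a transcription factor that silences the embryonic globin gene and aids red cell maturation in mice. EPB41 encodes protein 4.1R, which ties spectrin to actin in the membrane skeleton of the red cell and is also made in many other cells. In mice the spleen makes red cells around birth and under stress, and in adult mammals it clears old ones. Back-splicing joins exons of a precursor RNA into a ring with no free ends, and such rings are degraded slowly.

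Library totals ran from 16273 to 87867 back-splice reads with a median of 37510, with 37023 to 57890 for 180d, 71092 to 87867 for 120d and 16273 to 23752 for 1d. The table held no count of 1, and 8.72% of all values were 0. Levels are given as TMM-scaled counts, in which each library is brought to a common size (the geometric mean over the libraries' effective sizes). Of 20 erythroid marker genes listed as a check (globins, ALAS2, KLF1, GATA1 and others) 0 had a circRNA in the table, and the same held for the macrophage, stromal and megakaryocyte lists, so neither the erythroid nature of the signal nor the whole make-up of the tissue could be checked by markers.

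The 10 junctions are printed because each is the sequence that the counted reads had to cross, and because they show which circles share an end. Each is given from 5′ to 3′ on the + strand as 15 bases in lower case from the end of the last exon followed by 15 bases in capitals from the start of the first exon, read from Sscrofa11.1.
circRNA_11322: tcaagtcaaaggaagGTTCTTTTGTGTGGC
circRNA_11324: acttttgctgagaagGTTCTTTTGTGTGGC
circRNA_11343: acatggtcataaaagAAATATGGAACAAGA
circRNA_20897: cagcaacagatccagGTACACCTGAGAGCC
circRNA_13653: cgtgctctgcttaagGTCTGAGCTCTTTCT
circRNA_30907: aacgaaacctctaagCAACATCATGACAAC
circRNA_30908: aaaagcaggttcgtgCAACATCATGACAAC
circRNA_30910: gcataagtcatacagCAACATCATGACAAC
circRNA_30913: gaagccttgatggagCAACATCATGACAAC
circRNA_30915: cctacaggagaaggaCAACATCATGACAAC
The capitals are the same in circRNA_11322 and circRNA_11324 of TFRC, and the same in all 5 circRNAs of EPB41. Within each gene those circles start at the same base and differ in where they end. All 10 had an AG just before the first base and a GT just after the last base of the circle, as did 3000 of the 3000 circRNAs of the table. The study used GT-AG signals to identify circRNAs, so this motif was fixed by how the table was made.

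The TFRC circles lie on chromosome 13. circRNA_11322 (chr13:133976765-133979478) spans exons 1 to 4 of the 18 exons of the transcript and would hold 625 nt if its introns were removed. circRNA_11324 (chr13:133976765-133981842) spans exons 1 to 6 and 848 nt, and circRNA_11343 (chr13:133986643-133987630) spans exons 9 and 10 and 278 nt. The first 2 start at the first base of the 1 RefSeq transcript of TFRC and hold its start codon. RefSeq therefore gives no exon upstream of that base. The AG before it is no separate sign of a splice acceptor, because GT-AG signals were used to identify the circRNAs. The sequence across that base is shown because the most abundant TFRC circle uses this end. It has 20 bases before the exon in lower case and the first 10 exon bases in capitals.
TFRC exon 1 start: attctctattttacttctagGTTCTTTTGT
SOX6 circRNA_20897 (chr2:42861755-42864865) joins exons 10 and 11 of 21, 242 nt, and lies between introns of 46982 nt before it and 68601 nt after it. ABCB10 circRNA_13653 (chr14:60333916-60341862) spans exons 7 to 11 of 13 and 611 nt.

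All 5 EPB41 circles start at exon 2 of 22, a 478 nt exon at chr6:85922219 that follows an intron of 74148 nt. They end at base 85927930 in exon 4 (circRNA_30907, 796 nt), 85933654 in exon 5 (circRNA_30908, 839 nt), 85945503 in exon 7 (circRNA_30910, 1134 nt), 85965818 in exon 11 (circRNA_30913, 1646 nt) and 85987600 in exon 16 (circRNA_30915, 2179 nt). For every gene, exon numbers and lengths follow the RefSeq transcript with most exons among those holding both ends. Of the 48 EPB41 transcripts 28 held both ends of circRNA_30915, with 12 to 15 exons and 2014 to 2179 nt between them. The start of exon 2, shown because all 5 circles use it, reads as below with 20 intron bases in lower case and 10 exon bases in capitals.
EPB41 exon 2 start: ttccatcttctttttaatagCAACATCATG
EPB41 was 1 of 63 host genes with at least 5 circRNAs, and 27.45% of the circRNAs with a gene model started at an exon 2. Over the table the median circle had 3 exons and 432 nt, with introns of 7657 nt before it and 6701.5 nt after it. Within 1000 bases on each side of the circle, an inverted match of at least 80 nt was found for 4 of the 10 (circRNA_11322, circRNA_13653, circRNA_30907 and circRNA_30913) and for 35.57% of the 3000 circRNAs.

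**Figure D1:**
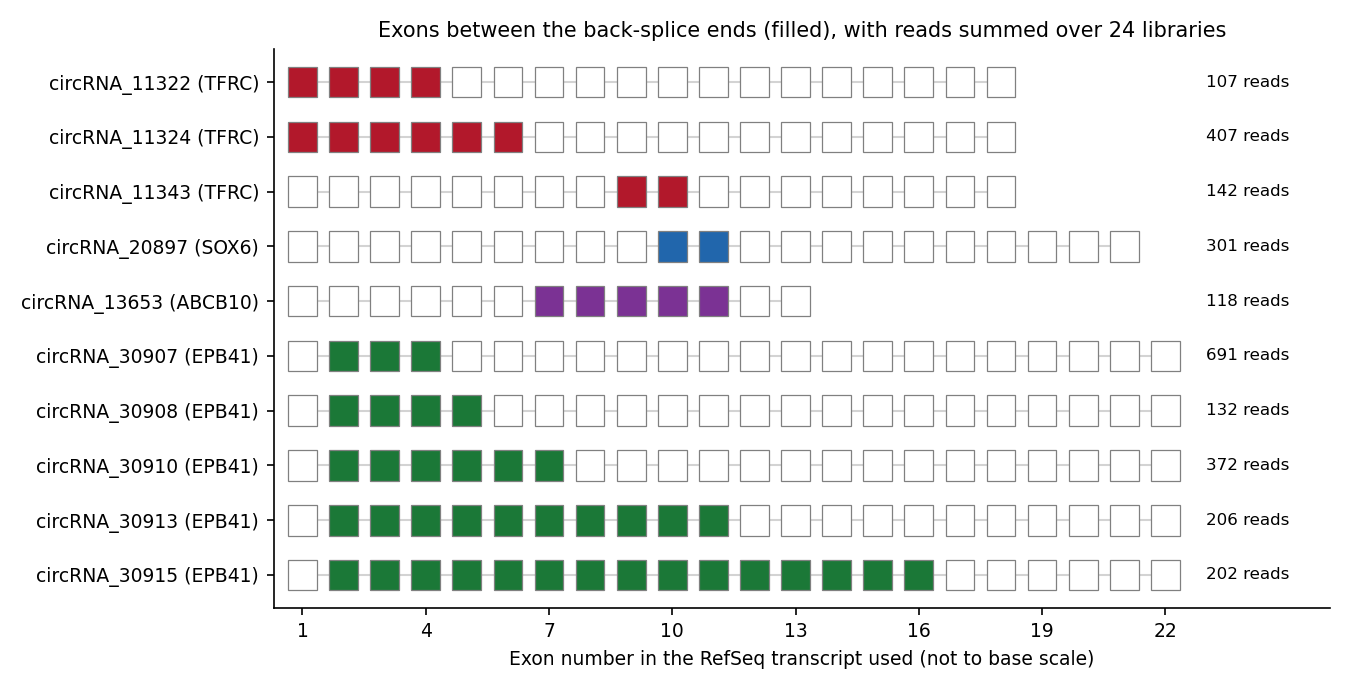
Exons lying between the back-splice ends (filled) among the exons of the RefSeq transcript used, 1 row for each circRNA, with the reads summed over the 24 libraries at the right. The horizontal axis is exon number and is not to base scale; all 5 EPB41 circles share exon 2 as their first exon, and 2 of the 3 TFRC circles share exon 1.

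TFRC circRNAs, summed, had their highest means at 7d and 1d and their lowest at 120d and 180d. For the sum of the 3 TFRC circRNAs, pigs of 1d had 59.7, 52.7 and 31.6 TMM-scaled counts, those of 7d had 96.7, 76.6 and 75.04, those of 14d had 26.02, 51.7 and 39.9, and those of 21d had 64.7, 27.8 and 28.8. For the same sum at later stages, pigs of 28d had 10.6, 29.8 and 36.8, those of 35d had 19.5, 9.93 and 3.72, those of 120d had 5.65, 10.4 and 9.69, and those of 180d had 0, 2.16 and 12.7. Every library at 180d, 120d and 35d was below every library at 1d, and every library at 7d was above every library at 1d.

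Against 1d, the TFRC sum fell 8.67-fold at 180d (log2 fold change −3.12, SE 0.67), with means of 4.97 ± 6.82 at 180d and 48.0 ± 14.6 at 1d (SD, n = 3 each; adjusted p = 0.00290, edgeR's quasi-likelihood test with Benjamini-Hochberg adjustment over the 1670 host genes). It fell 5.51-fold at 120d (−2.46, SE 0.59, adjusted p = 0.00798 by the same edgeR test), where it averaged 8.59 ± 2.58, and 4.54-fold at 35d (−2.18, SE 0.61, adjusted p = 0.0499), where it averaged 11.05 ± 7.95. A comparison of stages was called when the adjusted p was below 0.05 and the change at least 2-fold. The call at 35d was lost without replicate 1 or 2 of 1d or replicate 2 or 3 of 35d (log2 fold changes −2.0, −2.07, −2.15 and −1.74). With the clean reads of each library as the depth in place of TMM, the TFRC calls at 120d (−0.69) and 35d (−1.08) against 1d were lost, and that at 180d was kept. At 7d the TFRC sum averaged 82.8 ± 12.1, with a log2 fold change against 1d of 0.80 (SE 0.52) that did not pass the test (adjusted p = 0.636, edgeR). Against 7d it was lower at 35d (−2.99, adjusted p = 0.00218), 120d (−3.27, adjusted p = 0.000291) and 180d (−3.92, 15.2-fold, adjusted p = 0.000114), while 28d missed the threshold (−1.71, adjusted p = 0.0587, edgeR). Stages next to each other in the order of their means did not differ by the call rule, and 14d, 21d and 28d were not called against 1d or 7d.

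**Figure D2:**
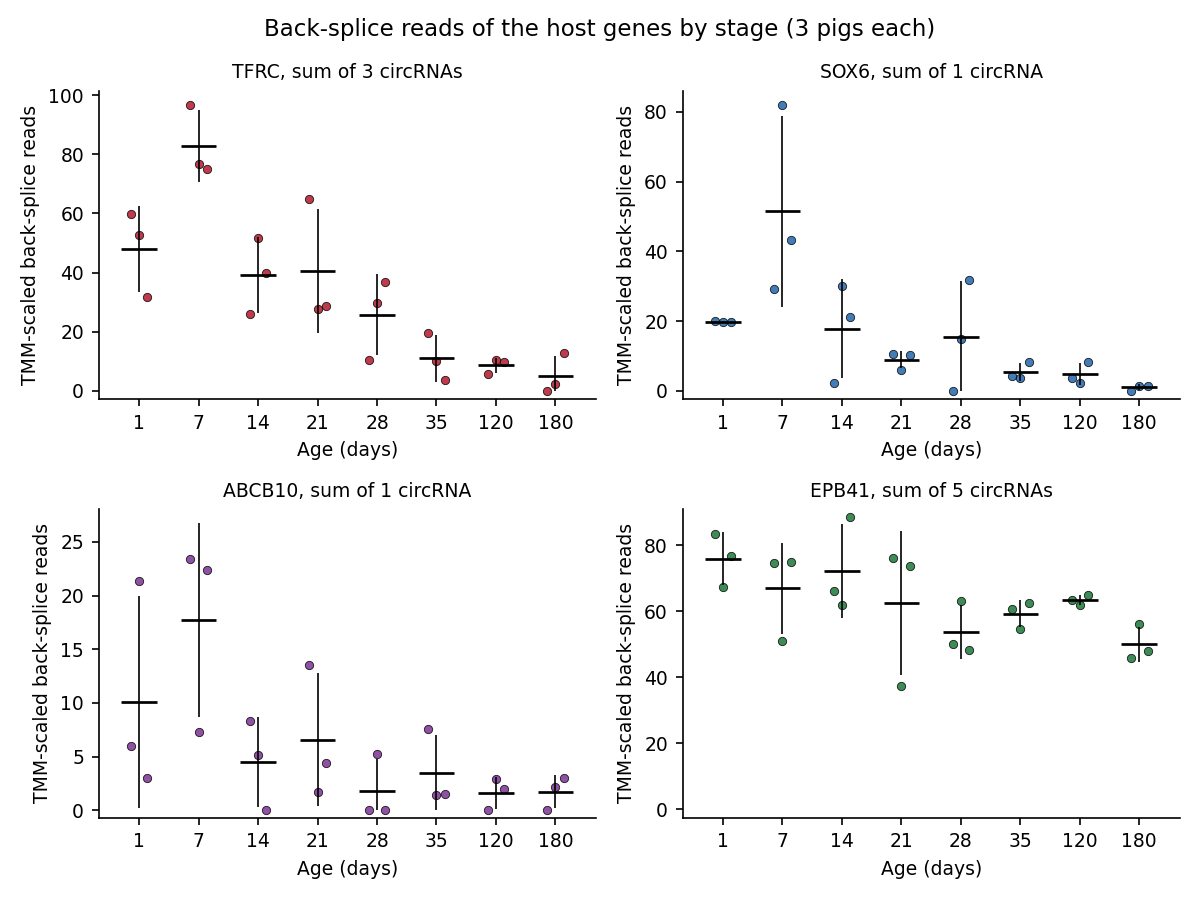
TMM-scaled back-splice counts summed over the circRNAs of TFRC, SOX6, EPB41 and ABCB10 (vertical axes) against age in days (horizontal axes, stages evenly spaced), 1 point for each pig, with the mean as a line and 1 SD as a bar that is cut at 0. For TFRC all 3 pigs at 180d lie at or below 12.7 and all 3 at 1d at or above 31.6, whereas for EPB41 the pigs lie at 45.9 to 56.1 at 180d and 67.5 to 83.6 at 1d.

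Each of the 3 TFRC circles was called lower against 1d at 120d, at 180d or at both, on few reads. circRNA_11324, the most abundant of them, had 0, 0 and 6.0 TMM-scaled counts in the 180d pigs, 5.65, 9.28 and 6.78 in the 120d pigs, and 37.8, 26.3 and 19.6 in the 1d pigs, so the groups did not overlap. Its log2 fold change against 1d was −3.60 (SE 1.00, adjusted p = 0.0285 over 3000 circRNAs, edgeR) at 180d and −1.92 (SE 0.79, adjusted p = 0.176) at 120d. The 180d call was lost without replicate 1 or 2 of 1d (−3.34 and −3.61) or replicate 1 or 2 of 180d (−3.17 and −2.97).

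circRNA_11343, the circle of exons 9 and 10, had 0, 0 and 2.25 TMM-scaled counts in the 180d pigs, 0, 0 and 0.969 in the 120d pigs, and 13.9, 9.88 and 7.53 in the 1d pigs. These are 3 reads at 180d and 2 reads at 120d, against 18 reads at 1d. Scaled for library size, the ratio to 1d was 0.0807 at 180d (95% interval 0.0152 to 0.276) and 0.0333 at 120d (0.00375 to 0.139), intervals that cover counting error only. Both passed the edgeR test (adjusted p = 0.00979 at 180d and 0.00118 at 120d), the first not without replicate 2 of 180d (log2 fold change −2.89) or with clean reads as the depth (−2.39). At 7d circRNA_11343 had 27.9, 14.6 and 25.5 TMM-scaled counts, each above every library at 1d. The lowest of these rests on 8 reads and the highest at 1d on 7. The log2 fold change of 1.14 against 1d did not pass the test (adjusted p = 0.621, edgeR).

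circRNA_11322 had 0, 2.16 and 4.50 TMM-scaled counts in the 180d pigs, 0, 1.16 and 1.94 in the 120d pigs, and 7.96, 16.5 and 4.52 in the 1d pigs. The 180d and 1d groups nearly met, at 4.50 and 4.52. It was called at 120d (−3.10, SE 1.00, adjusted p = 0.0442, edgeR) but not at 180d (−1.96, SE 0.96, adjusted p = 0.202). The 120d call was lost without any 1 of the 3 libraries of 120d or replicate 1 or 2 of 1d (log2 fold changes −3.90 to −2.46), and with clean reads as the depth (−1.39).

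The SOX6 circle circRNA_20897 also had its highest mean at 7d and its lowest at 180d. For it, pigs of 1d had 19.9, 19.8 and 19.6 TMM-scaled counts, those of 7d had 29.3, 82.0 and 43.1, those of 14d had 2.37, 29.98 and 21.2, and those of 21d had 10.4, 6.07 and 10.3. For SOX6 at later stages, pigs of 28d had 0, 14.9 and 31.7, those of 35d had 4.33, 3.55 and 8.17, those of 120d had 3.77, 2.32 and 8.23, and those of 180d had 0, 1.44 and 1.5. The 3 values of 1d lay close together, but they rest on 10, 12 and 13 reads, too few to show how alike the pigs were. Those of 14d and 28d were widely spread, and every library at 180d, 120d and 35d was below every library at 1d.

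As the sum of its gene, SOX6 fell 16.6-fold at 180d (log2 fold change −4.05, SE 1.04, adjusted p = 0.00936, edgeR), with means of 0.979 ± 0.848 at 180d and 19.8 ± 0.160 at 1d (SD, n = 3 each). The 3 pigs of 180d had 4 SOX6 reads in all, against 35 at 1d and 92 at 7d, so the size of each fold change at 180d is uncertain. Since SOX6 has 1 circRNA, the same counts tested among the 3000 circRNAs gave an adjusted p of 0.0245, which rose above 0.05 when any 1 of the 6 libraries was left out (0.0523 to 0.0811), while among host genes the call held in each of these (log2 fold changes −4.36 to −3.65). At 120d (−2.0, SE 0.78) and at 7d (1.36, SE 0.69) the SOX6 sum did not pass the test (adjusted p = 0.0972 and 0.503, edgeR), with means of 4.77 ± 3.08 at 120d and 51.5 ± 27.3 at 7d. Against 7d it was lower at 35d (−3.21, adjusted p = 0.00667), 120d (−3.36, adjusted p = 0.00163) and 180d (−5.41, 42.6-fold, adjusted p = 0.000136, edgeR). The first of these 3 was lost without replicate 2 of 35d (−2.95). All 3 were lost when only libraries whose share of valid bases reached 0.96 were used, which left 1 library each at 35d, 120d and 180d. The comparisons of SOX6 with 1d, like those of the other genes, share the 3 libraries of 1d.

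ABCB10, the mitochondrial transporter, had few reads and a wide spread between pigs. For its circle circRNA_13653, pigs of 1d had 5.97, 21.4 and 3.01 TMM-scaled counts, those of 7d had 23.5, 7.29 and 22.4, those of 14d had 8.28, 5.17 and 0, and those of 21d had 13.6, 1.74 and 4.43. For ABCB10 at later stages, pigs of 28d had 0, 5.27 and 0, those of 35d had 7.58, 1.42 and 1.49, those of 120d had 0, 2.90 and 1.94, and those of 180d had 0, 2.16 and 3.0. The libraries of 180d and 120d lay at or below 3.0 and those of 1d at or above 3.01, so the groups did not overlap but met almost at one value.

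Against 1d the ABCB10 sum was not called at 180d (−2.38, SE 1.04, adjusted p = 0.118, edgeR) or at 120d (−2.62, SE 0.99, adjusted p = 0.0750), with means of 1.72 ± 1.55 at 180d, 1.61 ± 1.48 at 120d and 10.1 ± 9.87 at 1d (SD, n = 3 each). Leaving out replicate 3 of 1d brought the 120d value past the threshold (−3.06, adjusted p = 0.0493, edgeR). Against 7d, where ABCB10 averaged 17.7 ± 9.03, it was lower at 120d (−3.43, SE 0.93, adjusted p = 0.00748), at 180d (−3.19, SE 0.97, adjusted p = 0.0162) and at 28d (−3.12, SE 1.00, adjusted p = 0.0497, edgeR). The 180d call was lost without replicate 1 or 3 of 7d or replicate 1 or 2 of 180d (log2 fold changes −2.94, −2.96, −2.75 and −3.32). The 28d call was lost without any 1 library of 7d or replicate 1 or 3 of 28d (log2 fold changes −3.48 to −2.55). None of these 3 ABCB10 calls against 7d was kept when clean reads served as the depth (−1.87 for 120d, −2.20 for 180d and −2.41 for 28d).

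The sum of the 5 circRNAs of EPB41, the membrane skeleton gene, passed no comparison of stages with TMM scaling. For this sum, pigs of 1d had 83.6, 67.5 and 76.8 TMM-scaled counts, those of 7d had 74.8, 51.0 and 75.04, those of 14d had 66.2, 62.0 and 88.5, and those of 21d had 76.2, 37.3 and 73.9. For EPB41 at later stages, pigs of 28d had 50.0, 63.2 and 48.2, those of 35d had 60.6, 54.6 and 62.4, those of 120d had 63.6, 62.1 and 64.9, and those of 180d had 45.9, 56.1 and 48.0. The libraries of 180d were all below those of 1d, but by less than 2-fold in the means, 50.0 ± 5.37 at 180d and 76.0 ± 8.09 at 1d (SD, n = 3 each).

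The log2 fold change of the EPB41 sum against 1d was −0.59 at 180d (SE 0.24, adjusted p = 0.0824, edgeR) and −0.25 at 120d (SE 0.23, adjusted p = 0.556), where EPB41 averaged 63.5 ± 1.43. Of the 28 pairs of stages 0 were called by edgeR, 3 had an unadjusted p below 0.05, and DESeq2 called 0 of the 11 pairs that include 1d or 7d and were run with it. The direction depends on the depth used: in reads per M clean reads, the EPB41 sum was 0.577 ± 0.150 in 180d pigs and 1.15 ± 0.192 in 120d pigs, against 0.403 ± 0.0516 in 1d pigs, higher at both later stages, whereas the sums of TFRC (0.0621 in 180d, 0.155 in 120d and 0.249 in 1d pigs) and SOX6 (0.0123, 0.0916 and 0.105 at the same stages) kept their direction. With that depth EPB41 was called higher at 120d against 1d (log2 fold change 1.51, adjusted p = 5.7e-05, edgeR) and passed the tests of the slope and of any difference among stages (0.16 for each doubling of age, adjusted p = 0.00156, and adjusted p = 0.000327), but not at 180d (0.52, adjusted p = 0.186). With clean reads as the depth the median host gene itself was higher by 1.30 (180d) and 2.0 (120d) on the log2 scale, and by 0.21 and 0.26 with TMM.

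Within EPB41, the circles ending in exons 7 and 16 were called lower at 180d, and the circle ending in exon 4 was not. circRNA_30907 had 26.7, 32.3 and 22.5 TMM-scaled counts in the 180d pigs, 26.8, 36.0 and 32.5 in the 120d pigs, and 25.9, 19.8 and 13.6 in the 1d pigs, with overlapping ranges at 180d and 1d and no overlap at 120d and 1d. Its log2 fold change against 1d was 0.49 at 180d (SE 0.34, adjusted p = 0.415, edgeR) and 0.71 at 120d (SE 0.33, adjusted p = 0.213), neither of which passed. With clean reads as the depth both passed (1.60 and 2.47).

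circRNA_30915, the longest of the circles, had 0, 3.59 and 3.75 TMM-scaled counts at 180d, against 21.9, 8.23 and 12.1 at 1d, with no overlap. It fell by 2.32 on the log2 scale (SE 0.69, adjusted p = 0.0204, edgeR), a call lost without replicate 1 of 1d (−1.89) or replicate 1 of 180d (−1.87). circRNA_30910 had 8.54, 8.62 and 9.75 at 180d, against 23.9, 14.8 and 39.2 at 1d, and fell by 1.53 (SE 0.49, adjusted p = 0.0337, edgeR). That call was lost without replicate 1 or 3 of 1d (−1.59 and −1.03) or without any 1 library of 180d (−1.60 to −1.50). Both calls were lost when clean reads served as the depth (−1.19 for circRNA_30915 and −0.45 for circRNA_30910).

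circRNA_30908 and circRNA_30913 did not pass the test. circRNA_30908 had 7.47, 4.31 and 6.75 TMM-scaled counts at 180d, against 0, 8.23 and 6.03 at 1d (log2 fold change 0.29, adjusted p = 0.879, edgeR), and circRNA_30913 had 3.20, 7.19 and 5.25 at 180d, against 11.9, 16.5 and 6.03 at 1d (−1.07, SE 0.60, adjusted p = 0.287). The ranges overlapped for both. Over the 24 libraries circRNA_30908 ran between 0 and 14.7 and circRNA_30913 between 3.20 and 16.5.

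The share of EPB41 back-splice reads held by circRNA_30907 had a higher mean in the oldest spleens. Each count covers 1 junction, so the length of the circle does not enter. The share was 58.1%, 57.7% and 46.9% at 180d, against 31.0%, 29.3% and 17.6% at 1d, with no overlap, and averaged 54.2 ± 6.38% at 180d, 50.1 ± 7.86% at 120d and 25.96 ± 7.24% at 1d (SD, n = 3 each). Pooled over the 3 pigs it was 54.1% of 185 reads at 180d (95% exact Clopper-Pearson interval 46.6 to 61.4%) and 25.4% of 134 reads at 1d (18.3 to 33.6%), intervals for counting error only. circRNA_30910 held 18.1 ± 2.50% at 180d and 33.8 ± 15.2% at 1d, and circRNA_30915 held 4.74 ± 4.17% at 180d and 18.0 ± 7.28% at 1d.

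Whether the circles of a gene moved apart with age was tested with edgeR's diffSpliceDGE on a slope against log2 of the age in days, for the 8 circRNAs of TFRC and EPB41. Relative to the common slope of the gene, circRNA_30907 of EPB41 had a slope of 0.13 log2 units for each doubling of age (adjusted p = 0.248, edgeR) and circRNA_30915 of −0.17 (adjusted p = 0.335). After adjustment over the 1784 circRNAs tested 0 of the 8 were called and 2 had an unadjusted p below 0.05, while 0.224% of all were called, so the difference in share did not hold up across the table. The 3 circles of TFRC had an adjusted p of 0.999 each.

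**Figure D3:**
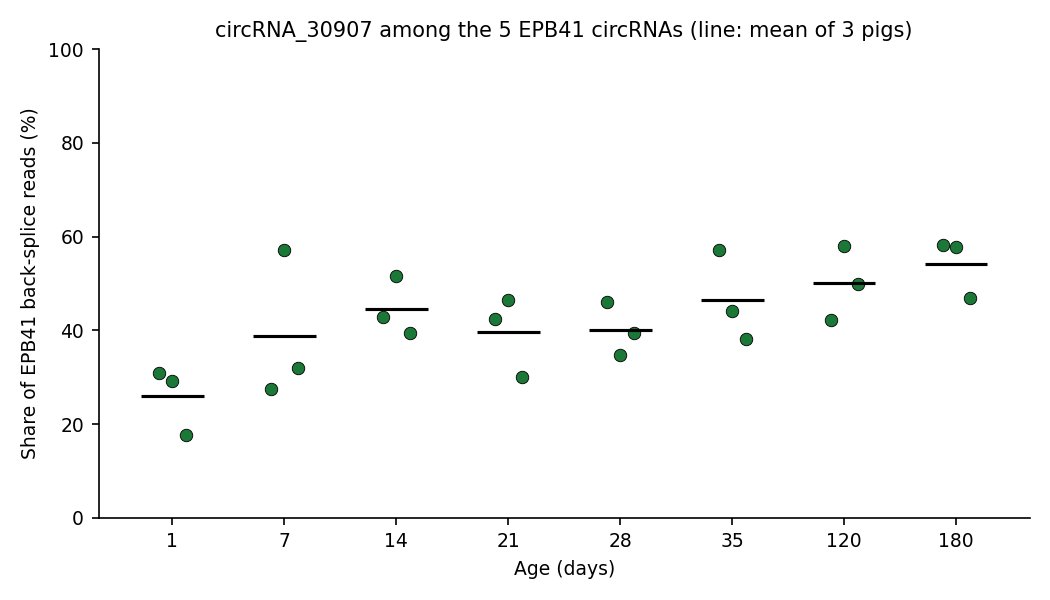
Share of the EPB41 back-splice reads that belong to circRNA_30907 (vertical axis, percent) against age in days (horizontal axis, stages evenly spaced), 1 point for each pig and a line at the mean of 3 pigs. The 3 pigs of 180d lie at 46.9 to 58.1% and the 3 pigs of 1d at 17.6 to 31.0%.

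Over all 8 stages the 4 genes were also tested for a slope against log2 of age. The sums of TFRC (−0.48 log2 units for each doubling of age, SE 0.10, adjusted p = 0.00143), SOX6 (−0.50, SE 0.13, adjusted p = 0.00696) and ABCB10 (−0.44, SE 0.12, adjusted p = 0.00625) fell with age, while EPB41 did not pass (−0.06, SE 0.03, adjusted p = 0.0819, edgeR). Thus 3 of 4 sums were called lower, beside 7.78% of all host gene sums called lower and 15.9% called higher. With clean reads as the depth ABCB10 missed the threshold (−0.22, adjusted p = 0.0727). A test for any difference among the stages called the same 3 sums (adjusted p = 0.000358 for TFRC, 0.00135 for SOX6, 0.0332 for ABCB10 and 0.475 for EPB41, edgeR), beside 15% of all host genes. The ABCB10 call in that test was lost without replicate 2 of 1d, replicate 1 or 3 of 7d, replicate 1 or 3 of 120d, or replicate 1 or 2 of 180d (adjusted p 0.0546 to 0.162), and when clean reads served as the depth (adjusted p = 0.250, edgeR).

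Among single circRNAs 7 of 10 were called lower with age: circRNA_11322 (−0.36), circRNA_11324 (−0.46) and circRNA_11343 (−0.57) of TFRC, circRNA_20897 of SOX6 (−0.50), circRNA_13653 of ABCB10 (−0.44), and circRNA_30910 (−0.16) and circRNA_30915 (−0.23) of EPB41. Their adjusted p-values (edgeR) ran from 0.000701 to 0.0336, and 5.77% of all circRNAs were called lower. The slope of circRNA_30910 was no longer called without replicate 1 or 3 of 1d, replicate 1 of 7d or any 1 library of 180d (−0.16 to −0.10), that of circRNA_11322 without replicate 2 of 1d (−0.34) and that of circRNA_30915 without replicate 1 of 1d (−0.21). When clean reads served as the depth, 2 of the 7 (circRNA_11343 and circRNA_20897) were still called. The other 3, all of EPB41, had slopes of 0.07 (circRNA_30907), −0.01 (circRNA_30908) and −0.13 (circRNA_30913) that did not pass. Any difference among stages was called for 4 of 10 (circRNA_11324, circRNA_11343, circRNA_13653 and circRNA_20897), beside 8.97% of the table. The circRNA_11324 call in that test was lost without any 1 library of 7d or replicate 1 of 120d (adjusted p 0.0508 to 0.0598, edgeR). The circRNA_13653 call was lost without replicate 1 or 2 of 1d, 1 or 3 of 7d, 2 of 14d, 3 of 21d, 1 or 3 of 28d, 2 or 3 of 35d, 1 or 3 of 120d, or any 1 library of 180d (adjusted p 0.0511 to 0.204, edgeR).

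Counted stage by stage against 1d, 5 of 10 circRNAs were called lower at 180d (circRNA_11324, circRNA_11343, circRNA_20897, circRNA_30910 and circRNA_30915), where 3.4% of all circRNAs were. Leaving out a library lowered this to 1 (without replicate 1 of 1d, or replicate 1 or 2 of 180d) or 3 (without replicate 2 or 3 of 1d, or replicate 3 of 180d). At 120d 2 of 10 were called (circRNA_11322 and circRNA_11343), where 1.47% of all were, and 1 of 10 without replicate 1 or 2 of 1d or any library of 120d. At 7d, 14d, 21d, 28d and 35d 0 of 10 were called by edgeR, with 0, 1, 0, 3 and 3 at an unadjusted p below 0.05 and 0, 0, 0, 0 and 1 called lower by DESeq2. The shares of all circRNAs called lower at these stages were 0%, 0%, 0.0333%, 0.3% and 0.267%. The median log2 fold change of the 10 was −2.14 at 180d and −1.45 at 120d, beside 0.20 and 0.26 for all 3000.

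Of the 4 sums, 2 were called lower at 180d (TFRC and SOX6), 1 at 120d and 1 at 35d (TFRC at both), where 4.55%, 2.28% and 0.599% of all host gene sums were called lower. Against 7d, TFRC, SOX6 and ABCB10 were all called at 180d and 120d (7.01% and 4.79% of all sums), TFRC and SOX6 at 35d (2.87%) and ABCB10 at 28d (1.68%). These 3 genes had their highest mean at 7d, which favours calls of lower against that stage. The shares cover all sums, whatever their highest stage, and the 4 genes were chosen with earlier results known, so the shares are no like-for-like measure here. Among all 28 pairs of stages the later stage was called lower in 9 for TFRC, 5 for SOX6, 3 for ABCB10 and 0 for EPB41, beside 1.19% of all tests of sums. By circle these were 2, 4 and 8 pairs for circRNA_11322, circRNA_11324 and circRNA_11343, 4 for circRNA_20897 and 2 for circRNA_13653. They were 0, 0, 1, 0 and 2 for the EPB41 circles in the order of their ends, beside 0.748% of all tests of circRNAs.

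**Figure D4:**
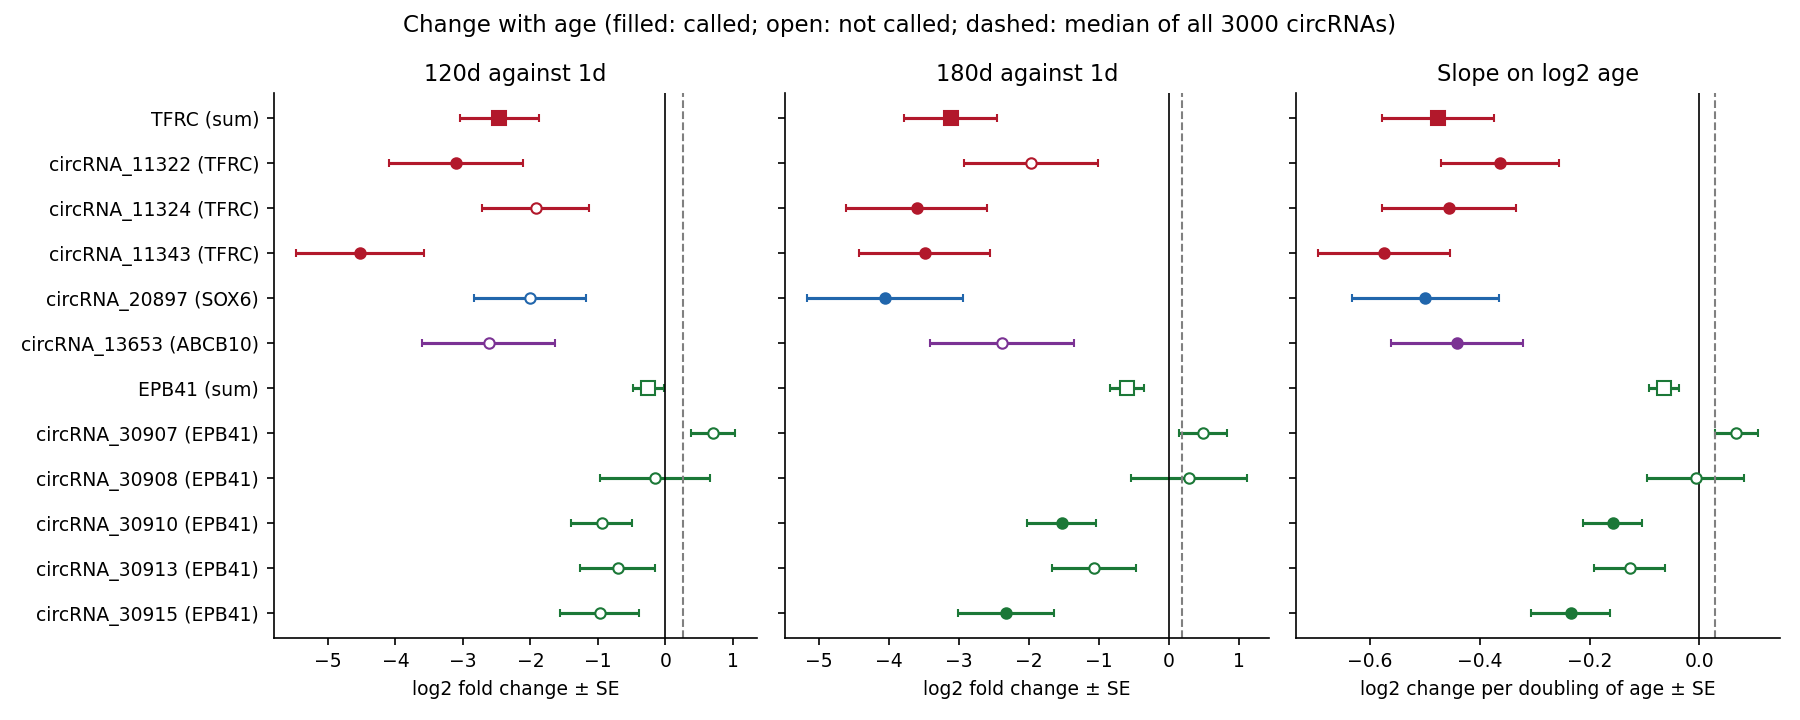
Log2 fold changes at 120d and 180d against 1d, and slopes against log2 of age, for the sums of TFRC and EPB41 and the 10 circRNAs (1 row each). Bars are 1 SE, and points are filled where the comparison was called. SOX6 and ABCB10 have 1 circRNA each and are shown only as that circRNA, with the calls made among the 3000 circRNAs. The dashed lines mark the median of all 3000 circRNAs (0.26 at 120d, 0.20 at 180d and 0.03 for the slope); the points of TFRC, SOX6 and ABCB10 lie left of them, and those of EPB41 lie on both sides.

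Replicate 1 of 180d lacked more of these circles than the other libraries. It had 6 of the 10 at 0 (all of TFRC, SOX6 and ABCB10, and circRNA_30915), where 9.57% of the whole table was at 0, while replicates 2 and 3 had 2 and 0 of the 10 at 0, with 4.83% and 4.8% of the table. Without it TFRC (−2.67, adjusted p = 0.00467) and SOX6 (−3.65, adjusted p = 0.0328, edgeR) were still called at 180d, and the slopes of TFRC, SOX6 and ABCB10 were −0.44, −0.47 and −0.42, each still called. Among single circRNAs circRNA_11343 was then the 1 called at 180d (−3.09, adjusted p = 0.0385, edgeR).

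Of 30 cell cycle genes 10 were measured, 4 of them (BUB1, BUB1B, MCM6 and KIF11) were called lower at 180d and at 120d, where 4.55% and 2.28% of all host gene sums were, and these 4 and SMC4 in the slope. The summed TMM-scaled count of the 10 was 42.7 to 70.4 in 180d pigs, 86.2 to 131 in 120d pigs and 187 to 214 in 1d pigs. At 7d, where TFRC and SOX6 were highest, it was 244 to 297. Of 24 T and NK cell markers 2 were measured (CD96 and TOX), with a sum of 57.0 to 65.4 at 180d and 17.9 to 19.8 at 1d, and CD96 was called higher at 180d (3.88) while TOX was not (0.18, adjusted p = 0.842, edgeR). Of 18 B and plasma cell markers 2 were measured (BANK1 and CD22), with a sum of 43.8 to 61.8 at 180d and 13.9 to 16.6 at 1d, and both were called higher (3.87 and 1.40), beside 8.14% of all host gene sums called higher at 180d. The part of dividing cells or of lymphocytes in the changes of the 4 genes was not tested.

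Other listed genes covered iron handling, haem, red cell transcription, membrane skeleton, growth factor signalling, terminal maturation and the families of ABCB10, SOX6 and EPB41. Most of these genes were missing from the table: 25 of 144 had a circRNA. At 180d against 1d 2 of these 25 were called lower and 1 higher, beside 4.55% of all host gene sums lower and 8.14% higher. They were SOS1, an exchange factor for RAS (−3.63, adjusted p = 0.0143), and NPRL3, a subunit of the GATOR1 complex (−2.08, adjusted p = 0.0342, edgeR). SLC39A8, a metal ion transporter, was called higher (3.23, adjusted p = 0.0211). At 120d 0 were called by edgeR, with 6 at an unadjusted p below 0.05 and 2 called lower by DESeq2, beside 6.71% of all host gene sums called higher and the 2.28% lower.

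With age 5 of the 25 were called lower and 4 higher, beside 7.78% of all host gene sums lower and 15.9% higher. Those lower were NPRL3 (−0.43), EIF2AK1, the haem-regulated kinase that holds back translation (−0.32), SOS1 (−0.31), BCL11A, a repressor of fetal globin in humans (−0.25), and DIAPH3, a formin (−0.24). Those higher were SLC39A8 (0.26), CLPX, a mitochondrial unfoldase that activates the first enzyme of haem synthesis (0.13), VPS13A, a lipid transfer protein (0.12), and TMOD3, which caps actin filaments (0.11). Their adjusted p-values (edgeR) ran from 0.0096 to 0.0406. EPB41L2, of the protein 4.1 family, had a log2 fold change of 1.02 at 180d that did not pass the test (adjusted p = 0.254, edgeR).

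The host genes whose log2 CPM (counts scaled to a common library total) over the 24 libraries were most like each of the 4 were ranked by Pearson r among 866 or 867 other host genes averaging 10 or more TMM-scaled counts. For TFRC they were ALMS1 (r = 0.93), FANCM (0.91) and AP2A1 (0.90), and for SOX6 HMMR (0.89), DNM3 (0.87) and DENND4A (0.85). For ABCB10 they were TMX1 (0.80), ALMS1 (0.73) and WDR33 (0.70), and for EPB41 CDK13 (0.72), WDR33 (0.67) and MEMO1 (0.62). These values are descriptions over libraries of which each 3 share a stage.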

How the data were processed

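Spleen RNA of 24 Meishan pigs was analysed, with 3 pigs at each of 8 stages. The authors trimmed the reads (FastQC and cutadapt are named in the labels), used BWA for alignment to Sscrofa11.1 and CIRI2 for circRNA calls, and TopHat2 is also named. Their deposited table gives raw back-splice counts of 3000 circRNAs, not normalized, and the rule by which these were chosen is not given in the sources used here. Because it holds part of each library, the clean reads listed by the study served as an alternative depth. Whether same-stage pigs shared a litter is not stated, so p-values measure the spread between these samples.

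Host genes were assigned from the RefSeq annotation of Sscrofa11.1 (tolerance 1 base), and counts were summed per gene. Left out of the sums were 152 circRNAs with no host gene and 6 that matched 2 genes, which together held 5.76% of the reads. All circRNAs entered 1 fit over 24 libraries in R 4.3.3 (edgeR 4.0.16, limma 3.58.1) with TMM, estimateDisp, robust glmQLFit and glmQLFTest and no covariate. Tests were two-sided, with Benjamini-Hochberg adjustment across the whole table of circRNAs or of host genes. Between stages a call needed an adjusted p below 0.05 and a change of 1 or more in either direction on the log2 scale, for slopes and for any difference the adjusted p only. Pigs of the same stage varied with a biological coefficient of 0.300, and most circRNAs (all but 1000 of 3000) averaged under 10 TMM-scaled counts. CPM values used a prior count of 2. Inverted matches were searched with blastn 2.17.0. Python 3.11.15, pandas 2.3.3, pysam 0.24.0 and matplotlib 3.10.9 were used.

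The 4 genes, the gene lists and the tests were chosen with earlier results of these data known. Named in the text are every circRNA and sum of the 4 genes, the members of the other lists called at 180d, 120d or in the slope with up to 4 more by smallest p in 180d vs. 1d, and the 3 host genes most like each of the 4. Alternatives were DESeq2 size factors, table totals or clean reads in place of TMM, DESeq2 1.42.0 in place of edgeR, filterByExpr, a replicate block, only libraries whose share of valid bases reached 0.96, and leaving out each library. The edgeR steps were tested on simulated data.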

Additional observations from a re-analysis of the deposited data

How the results depend on the processing

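With clean reads as the depth, the median host gene was higher by 2.0 at 120d and 1.30 at 180d against 1d and by 0.26 per doubling of age (log2), and by 0.26, 0.21 and 0.03 with TMM. It was 0.11, 0.14 and 0.02 with DESeq2 size factors and −0.01, −0.04 and −0.00 with table totals. With clean reads TFRC at 120d (−0.69) and the ABCB10 slope (−0.22) lost their calls, and EPB41 turned to 0.52 at 180d, 1.51 at 120d (called higher) and a slope of 0.16 (called). Of its circles, the sign also turned for circRNA_30908 (1.53 at 120d, slope 0.20), circRNA_30910 (0.80, 0.064), circRNA_30913 (0.057 at 180d, 1.05 at 120d, slope 0.10) and circRNA_30915 (0.83, 0.0038). Counts of the 10 called lower were then 2 at 180d, 1 at 120d and 2 for the slope, and of all host genes 17, 0 and 5, instead of 76, 38 and 130. With libraries of at least 0.96 valid bases, which leave out 7 of 24 and keep 1 at 120d and 1 at 180d, the slopes of TFRC (−0.37), SOX6 (−0.39) and ABCB10 (−0.46) and SOX6 at 180d (−7.16) lost their calls, with 2 of the 10 called at 180d, 0 in the slope, and 25, 13 and 30 host genes. The lone pig of a stage is there assumed to vary like the others. The EPB41 slope passed with DESeq2 size factors (−0.082) and table totals (−0.10), and table totals gave 71 host genes at 120d and 216 in the slope. With filterByExpr, which drops circRNA_30908, 1 of the 10 was called at 120d. The cause of these changes was not tested. Deviations of same-numbered libraries of different stages had a median correlation of 0.006 over 84 pairs (highest 0.104). Pairs of other numbers had −0.004 over 168 pairs (highest 0.098). Of the 24 libraries 13 were closest to 1 of their own number, and these values do not settle whether the numbers pair the libraries. With the replicate block SOX6 passed at 120d (−2.03) and at 28d against 7d (−1.93). At 120d 1 of the 10 was then called (circRNA_11322 was lost, −2.98). TFRC at 35d against 1d and ABCB10 at 28d against 7d were lost with the block (adjusted p 0.0685 and 0.0534, edgeR). The calls of circRNA_11324 and circRNA_13653 for any difference among stages were also lost with it (adjusted p 0.0515 and 0.0601, edgeR). Leaving out 1 library gave 1 to 3 of the 10 at 180d, 1 to 2 at 120d, 20 to 33 host genes at 120d, and −3.25 to −1.42 for ABCB10 at 120d. The sign of circRNA_30908 was not stable (−0.22 to 0.86 at 180d, −0.66 to 0.39 at 120d, slope −0.054 to 0.036). Depth limits all of this: several values at 180d and 120d rest on 2 to 4 reads over 3 pigs.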
